A study of Mus musculus with 55 samples.

Results

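The genes described here are 9 mouse genes of JAK-STAT signalling: the kinase genes Jak1, Jak2 and Tyk2 and the transcription factor genes Stat2, Stat3, Stat4, Stat5a, Stat5b and Stat6. They were taken by symbol from 55421 genes in a table of read counts of 46 libraries, and from 35976 genes in a second table of 9 libraries. All 9 were found in both tables. The study asked which signalling pathway takes part in the clonal expansion of blood cells that have lost Tet2, an enzyme that oxidises methylated cytosine in DNA. RNA was sequenced from bone marrow cells of C57BL/6 mice sorted by flow cytometry at 200 cells per sample. The first set held 6 populations. All were depleted of lineage marker positive cells and positive for cKit. Long-term hematopoietic stem cells (LT-HSCs) were Sca1+ CD48- CD150+ and short-term HSCs (ST-HSCs) Sca1+ CD48- CD150-. Common myeloid progenitors (CMPs) were Sca1- with intermediate or high CD34 and intermediate CD16/32, granulocyte-monocyte progenitors (GMPs) Sca1- CD34+ with high CD16/32, and megakaryocyte-erythroid progenitors (MEPs) Sca1- CD34- with low CD16/32. Common lymphoid progenitors (CLPs) had intermediate Sca1 and were CD127+. Each population came from wildtype (WT) and Tet2 knockout (Tet2-/-) mice, with 3 WT libraries of LT-HSCs and of ST-HSCs and 4 libraries in each of the other 10 groups. The second set held LT-HSCs alone, with 3 libraries each of WT, Sting knockout (Sting-/-) and Tet2/Sting double knockout (DKO) mice.

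Tet2 was deleted in Tet2 f/f, Mx1-Cre mice and the DKO mice were Tet2 f/f, Sting-/-, Mx1-Cre. The Mx1 promoter responds to interferon, and Cre was switched on with poly(I:C) in young mice that were then kept for months before analysis. Sting was deleted in the germline. Whether the WT mice received poly(I:C) is not stated in the sources used here. The labels number the libraries and the study describes them as mice. The labels themselves do not name the animals, so the p-values measure the spread between these libraries.

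Cytokine receptors lack kinase activity of their own. The JAK kinases bound to their tails phosphorylate the receptor and then a STAT protein, which pairs with another STAT, enters the nucleus and binds the promoters of target genes. JAK1 and TYK2 serve the receptors of type I interferon, whose signal runs through STAT2. JAK2 serves the receptors for erythropoietin and the growth factors of myeloid cells, which act largely through STAT5A and STAT5B. STAT3 follows interleukin-6 and granulocyte colony-stimulating factor, STAT4 interleukin-12, and STAT6 interleukin-4. SOCS proteins and phosphatases switch the pathway off.

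Positions are given on mm10 (GRCm38, GENCODE M21). Jak1 lies at chr4:101152367-101265282 on the minus strand, Jak2 at chr19:29251828-29313080 on the plus strand and Tyk2 at chr9:21104068-21131243 on the minus strand. Stat4 lies at chr1:51987148-52107189 on the plus strand. Stat2 at chr10:128270559-128292849 and Stat6 at chr10:127642986-127660957 share a chromosome and the plus strand. Stat5b (chr11:100780731-100850724, minus strand), Stat5a (chr11:100859351-100885169, plus strand) and Stat3 (chr11:100885098-100939540, minus strand) are neighbours. The exons of Stat3 and Stat5a overlap by 72 bases at their ends. Of the 50-base windows of Stat5a transcripts, 8.21% also occur in Stat5b, and of those of Stat5b 11% occur in Stat5a, so reads from these stretches could be shared between both genes and their levels are uncertain to that extent. Of the Stat4 exon bases, 26.7% are shared with Gm28177 on the same strand. Gm28177 itself held a median of 136.5 counts per library. No 50-base window was shared by any other pair of the 9 genes.

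Promoter windows were read from RefSeq sequence (GRCm38.p6, 250 bases before to 50 bases after each annotated start) because these factors control interferon genes through short DNA elements. The interferon-stimulated response element bound by STAT2 with its partners was searched on both strands as GAAA, any 2 bases and GAAA again. Stat4, Stat5a and Stat5b had 2 windows each and the other genes of the 9 had 1 each. The element was found in 2 of these windows, before the start of Stat2 and before an internal start of Stat4. Both are shown because they belong to the factor that binds the element and to the member with most calls between populations. Capitals mark the match. In Stat2 it lies 222 bases before the start on the opposite strand. In Stat4 it lies 97 bases before the start.
Stat2, chr10:128270248-128270547, plus strand: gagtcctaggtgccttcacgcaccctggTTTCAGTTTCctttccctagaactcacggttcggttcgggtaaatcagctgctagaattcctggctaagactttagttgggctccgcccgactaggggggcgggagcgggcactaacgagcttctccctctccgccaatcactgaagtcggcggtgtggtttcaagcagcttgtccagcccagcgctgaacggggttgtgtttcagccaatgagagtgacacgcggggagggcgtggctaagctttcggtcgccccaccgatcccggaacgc
Stat4 internal start, chr1:52007990-52008289, plus strand: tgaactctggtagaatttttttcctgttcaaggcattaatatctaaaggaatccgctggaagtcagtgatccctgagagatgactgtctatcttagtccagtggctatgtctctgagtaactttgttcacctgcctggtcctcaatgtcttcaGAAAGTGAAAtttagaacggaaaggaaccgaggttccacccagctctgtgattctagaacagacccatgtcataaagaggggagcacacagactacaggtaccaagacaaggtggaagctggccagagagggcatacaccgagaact
The same letters occurred in 1131 of 32851 mouse promoter windows (3.44%). The STAT element TTCNNNGAA, present in 8.3% of all windows, and the GATA element AGATAA, present in 11.2%, were found in no window of the 9 genes. A match is a description of these letters and was not tested as a binding site.

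Depth was high in every library. The first set had 50458473 to 102148079 counts and 13754 to 20964 detected genes per library, and the second set 26776517 to 78682096 counts and 9382 to 11528 genes. Markers of the sorted type were detected in MEPs, GMPs and LT-HSCs. In WT libraries the marker sums of LT-HSCs and CMPs did not set these populations apart from their neighbours. The summed level of 5 MEP markers was 13320 to 15030 CPM (counts scaled to a common library total) in WT MEPs, and that of 7 GMP markers 31520 to 42410 CPM in WT GMPs. The 7 LT-HSC markers summed to 598 to 873 CPM in WT LT-HSCs and, overlapping, to 548 to 619 CPM in WT ST-HSCs. In Tet2-/- libraries they did not overlap, at 917 to 1045 CPM in LT-HSCs and 414 to 734 CPM in ST-HSCs, where Slamf1 was at 0. The 4 CMP markers (Kit, Cd34, Gata2 and Mpo) summed to 2634 to 3730 CPM in WT CMPs and to 19430 to 25880 CPM in WT GMPs. Mpo is also on the list of GMP markers, so this sum cannot tell CMPs from GMPs. The CLP libraries stood apart from one another, with a mean correlation to their own group of 0.624 to 0.735, against 0.879 to 0.973 in the other 5 populations. The 6 CLP markers summed to 654 to 1388 CPM in WT CLPs and 495 to 2305 CPM in Tet2-/- CLPs, against at most 227 CPM in any library of the other populations. In WT CLPs 5 of them were detected, and the recombinase gene Rag1 was at 0 in all 4 WT CLP libraries. The summed GMP markers spanned 5.06 to 3175 CPM in WT CLPs and 2.84 to 12330 CPM in Tet2-/- CLPs. Tet2 transcript, counted over the whole gene, was in no population lower in all Tet2-/- libraries than in all WT libraries. WT and Tet2-/- libraries held 11.2 to 14.3 and 12.01 to 40.4 CPM for LT-HSCs, 11.6 to 35.2 and 10.3 to 25.9 CPM for ST-HSCs, 17.35 to 23.5 and 6.05 to 25.8 CPM for CMPs, 32.96 to 41.2 and 39.5 to 60.1 CPM for GMPs, 10.7 to 13.9 and 7.04 to 13.01 CPM for MEPs, and 2.33 to 27.7 and 21.8 to 72.5 CPM for CLPs. The mean was higher in Tet2-/- libraries of LT-HSCs, GMPs and CLPs and lower in those of ST-HSCs, CMPs and MEPs. Transcript from outside a deleted part is counted too, so these values do not check the labels. In the second set the Sting transcript (Tmem173) had 121, 0 and 62.35 CPM in the libraries labelled Sting-/-, 0, 0.196 and 26.1 CPM in those labelled DKO and 46.1, 34.6 and 0 CPM in WT. WT, Tet2-/-, Sting-/- and DKO therefore mean libraries so labelled.

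All levels are in CPM scaled by the trimmed mean of M values (TMM), which corrects library totals for differences in composition. To compare genes with each other, CPM was divided by exon length in kilobases. The lengths came with the second set of counts and were used for both sets. On that per-length level Stat4 was the most abundant of the 6 STAT genes in both stem cell populations. As a share of group means it held 53.9% of the summed STAT level in WT LT-HSCs and 53.3% in WT ST-HSCs, and it ranked first in all 7 Tet2-/- and WT LT-HSC libraries and in all 7 ST-HSC libraries. Its share was 31.0% in WT CMPs, 38.8% in WT CLPs, 17.6% in WT GMPs and 5.29% in WT MEPs. In MEPs Stat5a took over, with 48.5% of the STAT level in WT and 49.2% in Tet2-/- cells, and it ranked first in all 8 MEP libraries. In WT GMPs Stat3 ranked first with 30.6% and Stat6 second with 23.9%. The order depends on the length used, which for Jak2 was 10846 bases against 5030 in its longest GENCODE transcript. With the longest GENCODE transcript Stat6 ranked first in WT GMPs and the Stat3 share was 23.4%. With that length Stat5a also ranked above Stat3 in WT CMPs, and Jak2 above Stat3 in WT LT-HSCs. Stat4 stayed first of the STAT genes in both stem cell populations, and Stat5a in MEPs. Of the JAK genes, Jak1 had the highest per-length level in each of the 12 groups.

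**Figure D1:**
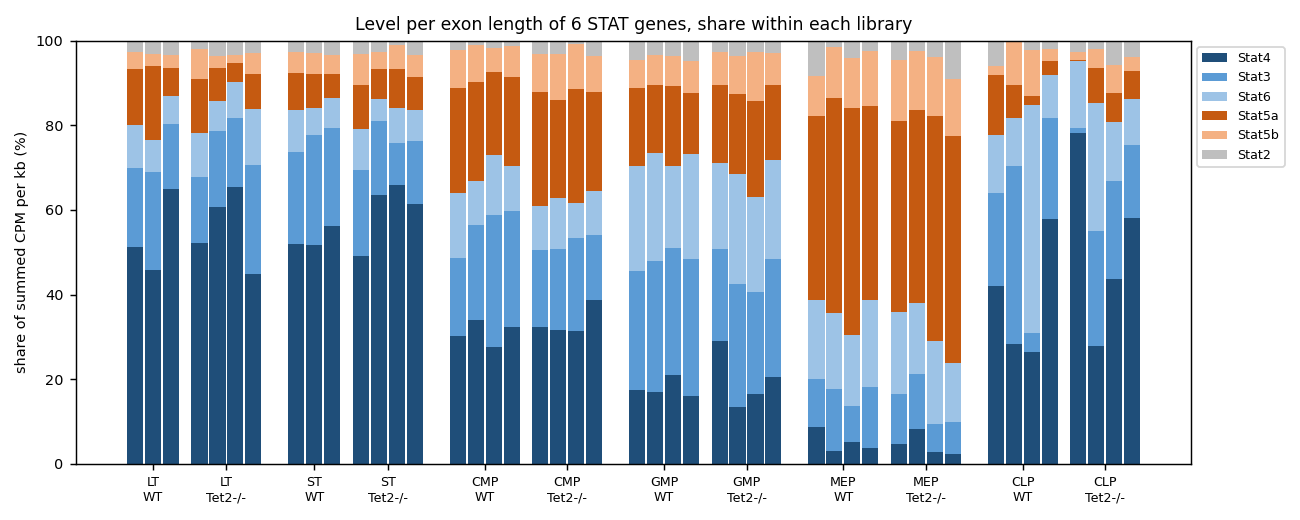
Share of the summed per-length STAT level (percent) held by each of the 6 STAT genes in each group of the first set, with 1 stacked bar per library. Stat4 fills 45.8% to 65.0% of the bars in WT LT-HSCs and 3.04% to 8.69% in WT MEPs, where Stat5a fills 43.3% to 53.7%.

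The next question was which of these genes differ between the 6 WT populations. Stat4, Jak2 and Stat3 differed most clearly: Stat4 was high in stem cells and lowest in MEPs, Jak2 was low in GMPs, and Stat3 was low in MEPs. Jak1 was high in CLPs and stem cells, and Tyk2 and Stat6 had their highest means in CLPs and GMPs. The Stat6 mean of CLPs was raised by 1 library, at 160.9 CPM against 31.25 to 36.0 CPM in the others. In the test over all 6 populations (edgeR's quasi-likelihood F test with Benjamini-Hochberg adjustment over all genes), 7 of the 9 genes passed an adjusted p of 0.05, where 44.6% of all genes tested did. Stat2 (adjusted p = 0.687) and Stat5b (adjusted p = 0.609) did not. With the replicate number as a block 6 passed, Stat6 being lost (edgeR adjusted p = 0.0595). In the 15 pairs of populations, calls needed at least a 2-fold difference as well. Of 135 gene and pair combinations 38 were called, or 10 for Stat4, 5 each for Jak2, Tyk2, Stat3 and Stat5a, and 4 each for Jak1 and Stat6. The background over all genes and pairs was 14.4%. Against LT-HSCs, 0 of the 9 genes were called in ST-HSCs (0.175% of all genes), 3 in CLPs (26.0%), 3 in GMPs (16.3%), 2 in MEPs (12.6%) and 1 in CMPs (5.53%). Against ST-HSCs there were 4 calls in MEPs (15.3%), 3 in GMPs (16%), 2 in CLPs (24.5%) and 1 in CMPs (5.0%). Between progenitors the calls were 1 for GMPs and CMPs (3.15%), 2 for MEPs and CMPs (6.45%), 2 for CLPs and CMPs (20.3%), 4 for MEPs and GMPs (14.7%), 4 for CLPs and GMPs (19.9%) and 6 for CLPs and MEPs (30.5%). Of the 38 calls, 22 held under every other setting of scaling, filter and tool and with each library left out, among them all 5 of Jak2, all 5 of Stat3 and 7 of the 10 of Stat4.

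Stat4, the STAT of interleukin-12 signalling, had 132.5, 128.5 and 171 CPM in WT LT-HSCs and 136, 150.5 and 164 CPM in ST-HSCs. CMPs had 58.3, 62.4, 54.1 and 74.2 CPM, GMPs 30.3, 36.7, 32.5 and 35.05 CPM and MEPs 10.2, 3.29, 5.645 and 3.425 CPM. Every stem cell library lay above every CMP, GMP and MEP library, and the MEP libraries lay below all others. The level in CLPs was 89.45, 64.4, 63.3 and 142 CPM, between stem cells and CMPs on average with overlap on both sides. From ST-HSCs to MEPs it fell, with a log2 fold change -4.78 ± 0.36 (SE), adjusted p = 2.17e-08 (edgeR), and MEPs against GMPs, its neighbours in the order, a log2 fold change -2.64 ± 0.32 (SE), adjusted p = 6.75e-06 (edgeR). GMPs against LT-HSCs gave -2.06 (edgeR adjusted p = 0.000139). The neighbours ST-HSCs and LT-HSCs, LT-HSCs and CLPs, CLPs and CMPs, and CMPs and GMPs were not called different.

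Jak2, the kinase of the erythropoietin receptor, had 16.9, 17.6, 7.99 and 8.10 CPM in WT GMPs. LT-HSCs had 46.9, 72.3 and 79.9 CPM, ST-HSCs 48.3, 56.99 and 70.1 CPM, CLPs 64.7, 70.3, 42.4 and 52.9 CPM and MEPs 48.1, 40.9, 46.2 and 50.9 CPM. All GMP libraries lay below all libraries of the other 5 populations, and those 5 overlapped one another. CMPs had 52.9, 48.5, 36.75 and 18.9 CPM. GMPs lay lower than LT-HSCs by a log2 fold change -2.35 ± 0.34 (SE), adjusted p = 5.51e-05 (edgeR), and GMPs against CMPs, its neighbours, a log2 fold change -1.61 ± 0.32 (SE), adjusted p = 0.00487 (edgeR). No pair of the other 5 populations was called different for Jak2.

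Stat3, the STAT of interleukin-6 signalling, had 19.6, 23.2, 13.5 and 19.6 CPM in WT MEPs. GMPs had 72, 99.04, 68.9 and 106 CPM and ST-HSCs 84.3, 112 and 100.4 CPM. The MEP libraries lay below every other WT library except the CLP library of replicate 4, at 16.7 CPM. All 5 pairs with MEPs were called, from a log2 fold change of -2.02 against LT-HSCs to -2.43 against ST-HSCs (edgeR adjusted p = 0.00323 and 0.000569). No pair without MEPs was called.

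Stat5a, a STAT of erythropoietin signalling, ran the other way. It had 72.4, 78.9, 83.4 and 60.3 CPM in WT MEPs and 69.01, 61.6, 55.04 and 68.9 CPM in CMPs, against 32.9, 32.7 and 23.99 CPM in ST-HSCs. CLPs had 43.2, 24.98, 7.67 and 11.4 CPM, and 4 of the 5 calls of Stat5a were pairs with CLPs. Those against CMPs and MEPs held in all 22 fits that left out 1 library, against GMPs in 8 and against LT-HSCs in 4. MEPs against ST-HSCs gave a log2 fold change 1.25 ± 0.43 (SE), adjusted p = 0.0477 (edgeR), a call near the threshold that did not hold in every setting. Its close relative Stat5b was called in no pair, with group means from 22.5 ± 4.13 CPM in LT-HSCs to 38.7 ± 7.145 CPM in CMPs.

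Jak1, the kinase that most cytokine receptors share, was highest in CLPs at 257.5 ± 116 CPM (SD, n = 4) and ST-HSCs at 245 ± 8.285 CPM (SD, n = 3), and lowest in GMPs at 115.5 ± 22.1 CPM (SD, n = 4) and MEPs at 119.8 ± 10.02 CPM (SD, n = 4). GMPs against ST-HSCs gave a log2 fold change -1.07 ± 0.26 (SE), adjusted p = 0.00617 (edgeR). Both calls against ST-HSCs held in every setting, and both calls against CLPs did not. Tyk2, the partner of JAK1 at the interferon receptor, ranged from 8.995 ± 2.12 CPM (SD, n = 3) in LT-HSCs to 25.8 ± 7.06 CPM (SD, n = 4) in GMPs and 36.6 ± 20.4 CPM (SD, n = 4) in CLPs. Of its 5 calls only the rise from LT-HSCs to CLPs held in every setting (log2 fold change 2.02 ± 0.44 (SE), adjusted p = 0.00181, edgeR). Stat6, the STAT of interleukin-4 signalling, reached 56.8 ± 14.8 CPM (SD, n = 4) in GMPs and 65.2 ± 63.8 CPM (SD, n = 4) in CLPs, where 1 library had 160.9 CPM and the other 3 had 31.25 to 36.0 CPM. None of its 4 calls held in every setting. Stat2, the STAT of type I interferon, had group means from 4.195 ± 1.185 CPM (SD, n = 4) in CMPs to 11.98 ± 1.69 CPM (SD, n = 3) in ST-HSCs, and was at 0 in 1 WT CLP library.

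**Figure D2:**
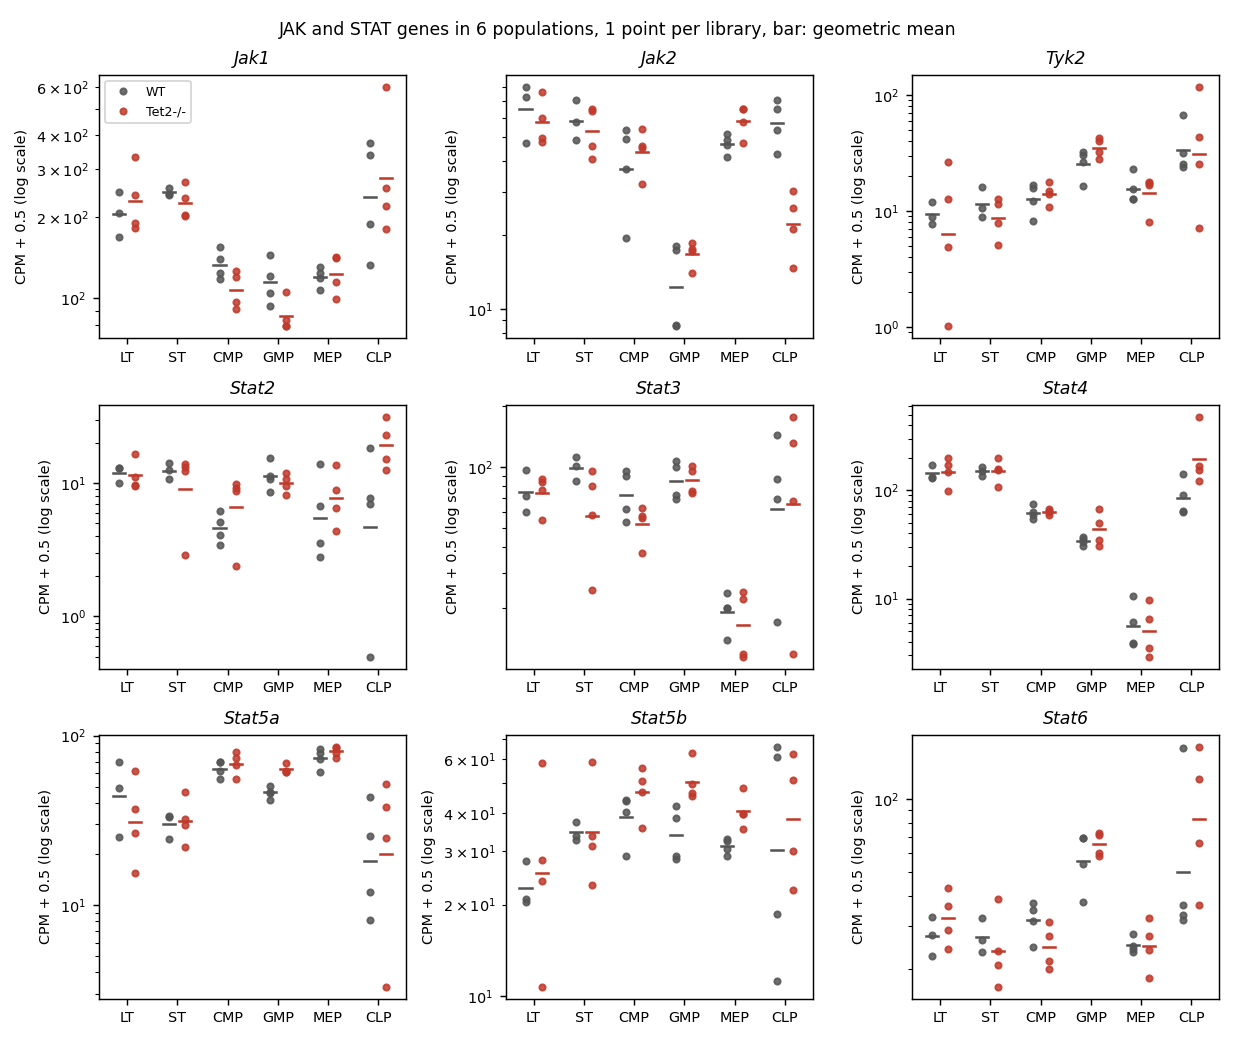
Level of each of the 9 genes (TMM-scaled CPM plus 0.5, log axis) in every library of the 6 populations, WT in grey and Tet2-/- in red, with 1 point per library and a bar at the geometric mean. The Stat4 points fall from 128.5 to 171.4 CPM in WT LT-HSCs to 3.29 to 10.2 CPM in WT MEPs, and the Jak2 points are lowest in GMPs.

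These comparisons rest on sorted bulk RNA, in which fewer cells of a type and less RNA per cell cannot be told apart. Pairs with CLPs also depend on the scaling: using library size alone moved the 9 genes in WT CLPs against each other population by medians between -0.82 and -0.68 on the log2 scale.

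In Tet2-/- cells the same test asked whether the genes differ between populations without Tet2. Here 6 of 9 genes passed over the 6 populations (40.2% of all genes), and Stat2, Stat5a and Stat5b did not (edgeR adjusted p = 0.178, 0.0596 and 0.548). The Tyk2 call (edgeR adjusted p = 0.0419) was lost in 19 of the 24 fits that left out 1 library, with adjusted p up to 0.123, and that of Stat3 in 2 of them. In the pairs, 37 of 135 combinations were called, against 12.2% over all genes and pairs, and 28 of the 37 held in every setting and with each library left out. Relative to LT-HSCs the calls were 0 in ST-HSCs (0.118% of all genes), 4 in GMPs (15.9%), 2 in MEPs (14.1%), 2 in CLPs (20.7%) and 1 in CMPs (3.91%). Relative to ST-HSCs they were 4 in GMPs (15.6%), 3 in CLPs (20.1%), 2 in MEPs (15.4%) and 1 in CMPs (3.33%). Between progenitors there were 2 for GMPs and CMPs (3.08%), 1 for MEPs and CMPs (3.62%), 3 for CLPs and CMPs (14.5%), 4 for MEPs and GMPs (15.7%), 2 for CLPs and GMPs (9.71%) and 6 for CLPs and MEPs (27.6%). Stat4 was again lowest in MEPs, at 5.99, 9.11, 3.01 and 2.415 CPM, against 154, 197.5, 106 and 158 CPM in ST-HSCs (log2 fold change -4.91 ± 0.48 (SE), adjusted p = 4.88e-07, edgeR). Its highest mean was now in CLPs, 229.9 ± 167 CPM. LT-HSCs and ST-HSCs had means of 153.7 and 153.9 CPM. The rank rests on 1 CLP library with 478.5 CPM, as the others had 121.3 to 165.8 CPM. CLPs against CMPs was called for Stat4 in Tet2-/- cells (log2 fold change 1.86 ± 0.42 (SE), adjusted p = 0.00456, edgeR), and without that library it was 1.21. Stat3 was again lowest in MEPs, at 23.5, 21.7, 11.1 and 11.4 CPM, with 4 calls, all against MEPs. Stat6 had 8 calls in Tet2-/- cells, with GMPs and CLPs each called higher than LT-HSCs, ST-HSCs, CMPs and MEPs, and 6 of the 8 held in every setting. Jak1 was called lower in CMPs and in GMPs than in LT-HSCs, ST-HSCs and CLPs, and lower in MEPs than in CLPs. Of these 7 calls 3 held in every setting and with each library left out, namely GMPs against LT-HSCs, ST-HSCs and CLPs, and CMPs against ST-HSCs held in 8 of the 24 fits that left out 1 library.

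Jak2 ranked differently in Tet2-/- cells. It ranked first in MEPs, at 46.9, 64.9, 64.6 and 57 CPM. The MEP mean of 58.4 CPM lay close to 57.9 CPM in LT-HSCs and 53.4 CPM in ST-HSCs, and these populations were not called different. CLPs ranked second to last, at 14.1, 29.6, 25.3 and 20.6 CPM, with GMPs last at 18.02, 16.65, 13.5 and 16.96 CPM. All MEP libraries lay above all CLP libraries. CLPs against MEPs gave a log2 fold change -1.39 ± 0.25 (SE), adjusted p = 0.000272 (edgeR) in Tet2-/- cells and a log2 fold change 0.34 ± 0.31 (SE), adjusted p = 0.429 (edgeR) in WT cells. All 7 Jak2 calls between Tet2-/- populations held in every setting and with each library left out.

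The main comparison of the study set Tet2-/- against WT cells within each population. None of the 9 genes passed an adjusted p of 0.05 with a 2-fold difference in any of the 6 populations (edgeR's quasi-likelihood test, 0 of 9 in each). Over all genes tested, 0.0245% (LT-HSCs), 0.0185% (ST-HSCs) and 0.00766% (CLPs) were called, and 4.57%, 4.37% and 4.36% for CMPs, GMPs and MEPs. In LT-HSCs, ST-HSCs and CMPs no gene of the 9 had an unadjusted p under 0.05, while 3 did in GMPs, 1 in MEPs and 2 in CLPs. Of all genes, 843 of 16351 did in LT-HSCs, 994 of 16212 in ST-HSCs and 3068 of 16047 in CMPs. The counts were 2868 of 16563 in GMPs, 2448 of 14934 in MEPs and 477 of 13060 in CLPs. The shifts of the 9 genes had log2 medians of 0.11 for LT-HSCs, -0.10 for ST-HSCs, 0.087 for CMPs, 0.34 for GMPs, 0.045 for MEPs and 0.41 for CLPs, beside medians of all genes from 0.026 to 0.074.

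**Figure D3:**
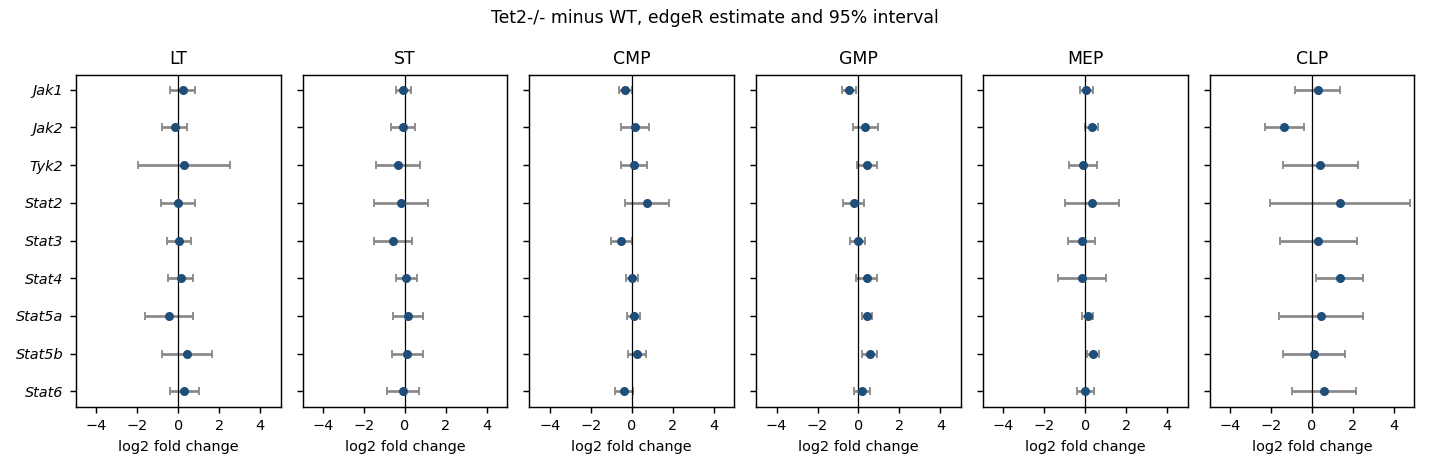
Log2 fold change of Tet2-/- against WT for each of the 9 genes in each of the 6 populations (edgeR). Lines show the approximate 95% interval. Most intervals cross 0, and in CLPs Jak2 lies at -1.35 and Stat4 at 1.34.

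In GMPs Stat5a was 46.1, 50, 41.45 and 45.6 CPM in WT and 60.7, 60.5, 68.8 and 61.3 CPM in Tet2-/- libraries. Stat5b was 28.3, 37.9, 27.6 and 41.5 CPM in WT and 44.98, 49.02, 62.2 and 45.8 CPM in Tet2-/- libraries. For both genes all 4 Tet2-/- libraries lay above all 4 WT libraries. The differences were small, 0.42 ± 0.11 (SE) for Stat5a and 0.55 ± 0.17 for Stat5b on the log2 scale (edgeR adjusted p = 0.0516 and 0.102). Groups without overlap occurred in 13.3% of all genes in GMPs, and in 2 of these 9. Reads from the sequence that both genes share could count towards either. Sums over lists of stem cell markers were also higher without overlap in the same libraries. The LT-HSC and ST-HSC lists share Ly6a, Kit, Hlf and Mecom, so their sums are not separate signals. All populations were sorted on cKit, whose gene Kit is on both lists. GMPs were also sorted on CD34, whose gene is on the ST-HSC list. In GMPs the 7 LT-HSC markers summed to 216 to 274 CPM in WT and 312 to 351 CPM in Tet2-/- libraries, and the 5 ST-HSC markers to 680.5 to 850.0 and 897 to 1013 CPM, with all detected. The 8 immediate early genes, which respond to handling of cells, summed to 2300 to 2972 CPM in WT and 645 to 1309 CPM in Tet2-/- GMPs. The part of these sums in the Stat5a and Stat5b values was not tested. In MEPs Stat5b alone did not overlap, with 28.4, 32.4, 31.8 and 29.9 CPM in WT and 47.6, 39.1, 39.02 and 34.95 CPM in Tet2-/- libraries (log2 fold change 0.38 ± 0.14 (SE), adjusted p = 0.184, edgeR), where 13.0% of all genes did not overlap. The LT-HSC markers there summed to 260.1 to 304 CPM in WT and 327 to 362 CPM in Tet2-/- libraries. The ST-HSC markers summed to 189.6 to 227 and 234.5 to 293 CPM and the immediate early genes to 853 to 1082 and 201 to 421.5 CPM. Their part was not tested either. Jak1 in GMPs was 121, 144, 93.45 and 104 CPM in WT and 82.75, 105.5, 78.35 and 78.55 CPM in Tet2-/- libraries, with 3 of the 4 Tet2-/- libraries below all WT libraries (log2 fold change -0.45 ± 0.16 (SE), adjusted p = 0.14, edgeR).

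In CLPs Jak2 was 64.7, 70.3, 42.4 and 52.9 CPM in WT and 14.1, 29.6, 25.3 and 20.6 CPM in Tet2-/- libraries. All 4 Tet2-/- libraries lay below all 4 WT libraries, with 1 of 9 genes without overlap beside 3.87% of all genes. Tet2-/- against WT gave a log2 fold change -1.35 ± 0.42 (SE), adjusted p = 1 (edgeR, 95% interval -2.30 to -0.40), with an unadjusted p of 0.0106 and an exact two-sided permutation p of 0.0286, which any 4 against 4 libraries without overlap give. Stat4 was 89.45, 64.4, 63.3 and 142 CPM in WT and 478.5, 121, 166 and 154 CPM in Tet2-/- libraries, with overlap (log2 fold change 1.34 ± 0.50 (SE), adjusted p = 1, edgeR). Without the Tet2-/- library of replicate 2 the Stat4 value was 0.71. Stat2 had the largest estimate in CLPs and a wide interval. It was 17.8, 0, 7.26 and 6.49 CPM in WT and 22.4, 12, 31.04 and 14.7 CPM in Tet2-/- libraries, with overlap (1.36, 95% interval -2.04 to 4.76).

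In CLPs the calls differed between fits, and which of their differences accounts for this was not tested. Fitted together with all 46 libraries, Jak2 (adjusted p = 0.00195) and Stat4 (adjusted p = 0.0213) were called in edgeR, where 1477 of 22360 genes were called. DESeq2 on the 8 CLP libraries called Jak2 (adjusted p = 0.00915) among 470 genes. With library size alone as the scaling, Jak2 was -0.82. The TMM factors were 0.516 to 0.713 in WT CLPs and 0.740 to 1.08 in Tet2-/- CLPs. Marker sums in the same libraries were as follows. The sum of 7 GMP markers, from the population where Jak2 was lowest, had a median of 649.7 CPM in WT and 3278 CPM in Tet2-/- CLPs over the ranges given above, with Cebpe at 0 in WT. The sum of 4 CMP markers, all detected, was 82.0 to 2172 CPM in WT and 257 to 7654 CPM in Tet2-/- CLPs. The CMP and GMP lists share Mpo, so these sums are not separate signals. The sum of 6 B cell markers was 536 to 1094 CPM in WT and 223 to 577 CPM in Tet2-/- CLPs, with Pax5 and Vpreb1 at 0 in WT. The sum of 5 megakaryocyte markers was 0.192 to 8.37 CPM in WT and 0.157 to 1398 CPM in Tet2-/- CLPs, with Gp1ba, Gp9 and Ppbp at 0 in WT. The sum of 8 immediate early genes was 15770 to 24720 CPM in WT and 3749 to 9257 CPM in Tet2-/- CLPs. Their part in the Jak2 and Stat4 values was not tested.

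In the other populations the intervals, which are approximate, bound what could be seen. In LT-HSCs the 95% intervals on the log2 scale were -0.40 to 0.82 for Jak1, -0.79 to 0.44 for Jak2 and -0.48 to 0.71 for Stat4. The interval of Tyk2 in LT-HSCs was wider, -1.95 to 2.52, and its Tet2-/- libraries ran from 0.515 to 26.05 CPM. In CMPs Jak1 was -0.32 ± 0.14 (SE) and Stat3 -0.52 ± 0.23 (edgeR adjusted p = 0.267 and 0.263). The summed MEP markers were higher without overlap in Tet2-/- CMPs, at 2756 to 5595 CPM against 560 to 1572 CPM in WT, and their part in these values was not tested. Stat2 in CMPs was 5.66, 2.95, 4.59 and 3.58 CPM in WT and 9.38, 8.73, 1.91 and 8.26 CPM in Tet2-/- libraries, with 3 Tet2-/- libraries above and 1 below all WT libraries. No gene of the 9 was without overlap in LT-HSCs, ST-HSCs or CMPs, beside 7.08%, 8.14% and 15.8% of all genes.

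Whether the Tet2 effect itself differed between populations was tested with the interaction of genotype and population over 46 libraries. Jak2 alone of the 9 genes passed (edgeR's quasi-likelihood F test, F = 5.11, adjusted p = 0.0455), beside 2.65% of all genes. Its log2 fold changes were -0.17 for LT-HSCs, -0.10 for ST-HSCs and -1.35 for CLPs, and 0.15, 0.34 and 0.32 for CMPs, GMPs and MEPs. The CLP value was the only one whose 95% interval did not include 0. Without the CLP libraries the adjusted p was 0.89, and with library size alone as the scaling it was 0.341. The call was lost in 27 of the 46 fits that left out 1 library, with adjusted p from 0.0269 to 0.107 over all 46, the highest without the Tet2-/- CLP library of replicate 2. Stat4 was next (edgeR adjusted p = 0.448).

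**Figure D4:**
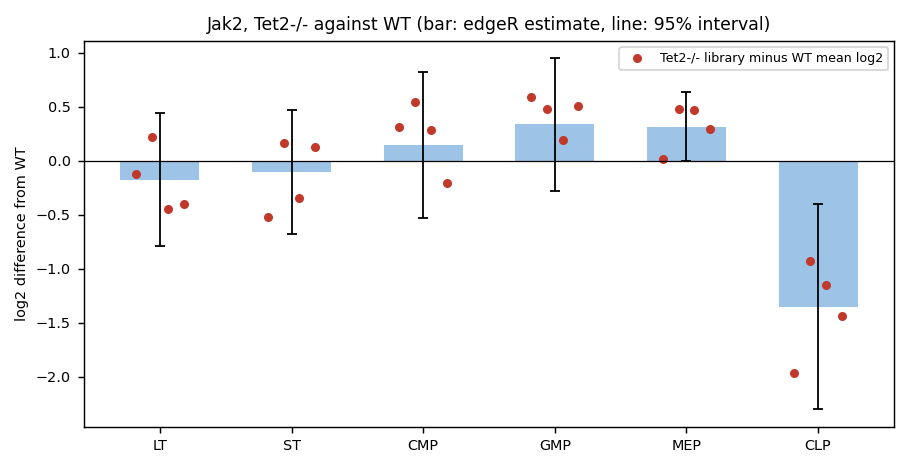
Log2 difference of Jak2 between Tet2-/- and WT in each of the 6 populations. Bars show the edgeR estimate and lines its approximate 95% interval, with 1 red point for each Tet2-/- library against the mean WT log2 level. The bar and all 4 points of the CLPs lie below 0 and the estimate there is -1.35, while the intervals of the other populations cross 0.

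The rest of the pathway was read from 4 lists of genes: 33 receptors that signal through JAK kinases, 19 inhibitors, 15 target genes of STAT3 and STAT5, and 15 interferon-stimulated genes of the STAT2 complex. Between the WT populations 27 of 31 tested receptors passed, 9 of 19 inhibitors, 14 of 15 target genes and 8 of 14 interferon-stimulated genes, beside 44.6% of all genes. The receptor genes of smallest p included Il2rg, Il7r and Il2rb, and those among the target genes were Junb, Pim2, Ccnd2 and Mcl1. Il7r is the gene of CD127, on which CLPs were sorted, so its difference is not independent of the sorting. In GMPs against LT-HSCs of WT mice, where 16.3% of all genes were called, 9 of 31 receptors were called higher, among them Csf2rb (6.01), Il6ra (4.79) and Csf2ra (3.84), and 3 lower. Of 19 inhibitors 2 were called higher in GMPs, among them the phosphatase gene Ptpn1 (1.69 ± 0.49, adjusted p = 0.0196, edgeR). The 2 called lower were Cish (-4.59 ± 0.48, adjusted p = 1.58e-06, edgeR) and Socs2 (-5.91 ± 1.08, adjusted p = 0.00054, edgeR), which are also on the list of targets. Of the 15 targets 2 were called higher, with Osm at 4.48, and 4 lower, with Id1 at -5.08. Of 14 interferon-stimulated genes 5 were called lower in GMPs and none higher, with Rtp4, Ifi44, Xaf1 and Irf9 from -4.77 to -1.25 on the log2 scale. In MEPs against LT-HSCs (12.6% of all genes called) Il2rg (-1.74), Cish (-2.94), Socs2 (-4.81), Id1 (-6.26) and the survival gene Mcl1 (-1.98) were called lower and the interferon receptor gene Ifnar2 higher (1.13). The counts there were 1 higher and 6 lower of 31 receptors, 1 and 4 of 19 inhibitors, 1 and 9 of 15 targets, and 0 and 2 of 14 interferon-stimulated genes.

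By genotype, receptor genes were called in CMPs, GMPs and MEPs, beside 4.57%, 4.37% and 4.36% of all genes. Ifngr2, a chain of the interferon gamma receptor, was lower in Tet2-/- CMPs (-1.84 ± 0.21, adjusted p = 0.000818), GMPs (-2.06 ± 0.15, adjusted p = 7.79e-06) and MEPs (-1.45 ± 0.23, adjusted p = 0.00508, edgeR). Ifnar2, a chain of the type I interferon receptor, was lower in Tet2-/- CMPs (-1.57) and MEPs (-1.01), Il6ra (-2.37) and Csf2ra (-1.51) were lower in GMPs, and Epor was higher in CMPs (1.03 ± 0.22, adjusted p = 0.0222, edgeR). The MEP markers that were higher in sum in Tet2-/- CMPs include Epor, with all 5 detected, and their part in the Epor value was not tested. In all, 4 of 26 receptors were called in CMPs (1 higher, 3 lower), 3 of 26 in GMPs and 2 of 21 in MEPs (all lower), and 0 in LT-HSCs, ST-HSCs and CLPs, where 1, 0 and 1 had an unadjusted p under 0.05 in edgeR. Ptpn11, the phosphatase SHP2, was lower in Tet2-/- CMPs (-1.14), GMPs (-1.23) and MEPs (-1.24), and the adaptor Sh2b3 in GMPs (-1.22). Among the targets Junb was lower in CMPs (-2.27) and MEPs (-2.68), Osm in CMPs (-1.57) and the kinase gene Pim1 in GMPs (-2.90). All called inhibitors and targets were lower in Tet2-/- cells, 1 of 19 inhibitors in CMPs, 2 of 19 in GMPs and 1 of 18 in MEPs, and 2 of 15 targets in CMPs, 1 of 15 in GMPs and 1 of 14 in MEPs. Over all genes, too, most calls were lower in Tet2-/- cells, 629 of 734 in CMPs, 672 of 723 in GMPs and 629 of 651 in MEPs. No inhibitor or target was called in the other populations (edgeR, 1, 0 and 1 inhibitors and 2, 2 and 2 targets with an unadjusted p under 0.05 in LT-HSCs, ST-HSCs and CLPs). In the interaction of genotype and population, 2 of 31 receptors (Ifnar2 among them) and 2 of 15 targets (Junb and Ccnd2) passed in edgeR. Of 19 inhibitors 0 passed and of 15 interferon-stimulated genes 0, beside 2.65% of all genes tested. In that order of lists 7, 4, 1 and 0 had an unadjusted p under 0.05, as had 3128 of all 22360 genes.

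The interferon-stimulated genes had mostly positive values, of which 1 each was called in GMPs and CMPs and none elsewhere. That was 7.14% of those tested in each, beside 4.37% of all genes in GMPs and 4.57% in CMPs. Elsewhere 4.36% (MEPs), 0.0245% (LT-HSCs), 0.0185% (ST-HSCs) and 0.00766% (CLPs) of all genes were called. In GMPs all 14 tested had a positive value, with a median of 0.85 beside 0.029 for all genes, and the 1 called was Ifi44 (1.84 ± 0.45, adjusted p = 0.033, edgeR). Ifi44 was also called in CMPs (1.30 ± 0.31, adjusted p = 0.0378, edgeR), where the list's median was 0.20. In LT-HSCs 11 of 14 were positive with a median of 0.54, and none was called (3 had an unadjusted p under 0.05). The 2 of smallest p there were Oasl2 (1.03) and Ifi44 (0.79, edgeR adjusted p = 0.743 for both). In ST-HSCs the median was 0.53, with 0 of 15 called and 4 at an unadjusted p under 0.05. In MEPs it was 0.48, with 0 of 13 called and 2 at such a p, and in CLPs 0.62, with 0 of 9 and 1. Markers of cell types moved with genotype in these libraries too. In GMPs the stem cell marker sums were higher without overlap, as given beside Stat5a. In LT-HSCs the LT-HSC markers summed to 598 to 873 CPM in WT and 917 to 1045 CPM in Tet2-/- libraries, the ST-HSC markers to 526 to 675 and 723 to 977 CPM, and the 5 megakaryocyte markers to 421 to 438 and 149.7 to 402 CPM, all without overlap and with all detected. Their part in the values of the interferon-stimulated genes was not tested. Stat2 itself was called in no population, with -0.018 for LT-HSCs, -0.21 for ST-HSCs, -0.24 for GMPs, 0.33 for MEPs, 0.74 for CMPs and 1.36 for CLPs. Immediate early genes, which respond to handling of cells, were lower in Tet2-/- libraries without overlap in CMPs, GMPs, MEPs and CLPs. Their sum over 8 genes, all detected and Junb among them, was 1987 to 3405 CPM in WT and 473 to 994 CPM in Tet2-/- CMPs. It was 2300 to 2972 and 645 to 1309 CPM in GMPs and 853 to 1082 and 201 to 421.5 CPM in MEPs. In CLPs it was 15770 to 24720 and 3749 to 9257 CPM. In LT-HSCs and ST-HSCs the genotypes overlapped. The part of the immediate early genes in the list values and in those of the 9 genes was not tested.

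Across the 12 group means of the first set, each member was set beside all 6665 genes with a mean of at least 20 CPM. The most similar were Ifi203 and Lpar6 for Stat4 (Pearson r = 0.981 and 0.979), Cks1b and Tuba1b for Stat5a (0.983 and 0.979), Pik3ap1 and Anxa1 for Stat3 (0.977 and 0.972) and Dpp3 and Pcif1 for Tyk2 (0.972 and 0.959). Jak1 was most like Gimap1os and P2ry10 (0.971 and 0.96), Jak2 like Tmem9 and Chmp2a (0.945 and 0.944), and Stat6 like Fuca2 and Os9 (0.947 and 0.944). Stat5b (Prps2, 0.859, and Cybc1, 0.828) and Stat2 (Ezh1, 0.818, and Nfrkb, 0.812) had weaker matches. Among the members themselves Stat3 and Stat4 were most alike (0.83), followed by Tyk2 and Stat6 (0.802), and Jak1 and Stat5a were most opposed (-0.869). These values describe 12 means that share libraries and were chosen as extremes.

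The second set of LT-HSCs gave the same genes in Sting-/- and DKO mice. No gene of the 9 was called in DKO against Sting-/-, DKO against WT or Sting-/- against WT (edgeR, beside 0.159%, 0.657% and 0.0% of all genes). In Sting-/- against WT no gene at all was called in edgeR, with 470 of 9969 at an unadjusted p under 0.05, and DESeq2 called 414. The pairs share samples, so their values are given side by side. Stat4 was high in all 3 groups, with 192, 276 and 129.5 CPM in WT, 214, 75.5 and 245 CPM in Sting-/- and 172.5, 330 and 224 CPM in DKO libraries, and the groups overlapped. Per length it had the highest mean of the STAT genes in each group and ranked first in 7 of the 9 libraries.

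Jak1 was 362, 189 and 247 CPM in WT, 53.03, 84.5 and 100.3 CPM in Sting-/- and 62.95, 97.7 and 164 CPM in DKO libraries. All WT libraries lay above all libraries of the other groups. The log2 fold change was -1.73 ± 0.42 (SE) in Sting-/- (edgeR adjusted p = 0.709) and -1.38 ± 0.48 in DKO (edgeR adjusted p = 0.244). In DESeq2 Jak1 was called in Sting-/- (-1.77, adjusted p = 0.029). The exact permutation test cannot go below p = 0.1 with 3 against 3 libraries. Stat3 was 207, 167 and 311 CPM in WT, 65.7, 138 and 161 CPM in Sting-/- and 52.8, 195.5 and 44.4 CPM in DKO libraries. Stat5a was 92.96, 61.5 and 53.5 CPM in WT, 7.71, 48.1 and 7.79 CPM in Sting-/- and 32.9, 35.97 and 10.4 CPM in DKO libraries. Neither gene was called. WT did not overlap Sting-/- in 3 of the 9 genes, beside 13.5% of all genes, and did not overlap DKO in 2, beside 25.1%. DKO and Sting-/- overlapped in all 9, where 18.8% of all genes did not. The immediate early genes summed to 6577 to 16320 CPM in WT, 6959 to 8668 CPM in Sting-/- and 3201 to 9115 CPM in DKO libraries. The 7 T and NK cell markers, of which 2 were detected, summed to 47.7 to 61.3, 37.1 to 113 and 110.7 to 129.4 CPM. The 5 ST-HSC markers summed to 654 to 916.0, 621 to 968 and 916.3 to 1104 CPM. In the T and NK cell and ST-HSC sums DKO lay above WT without overlap. The part of these sums in the Jak1, Stat3 and Stat5a values was not tested. Single libraries at or near 0 limited the rest. Jak2, Tyk2, Stat2 and Stat5b each had at least 1 library at 0, and Jak2 in DKO libraries was 136, 12.6 and 8.62 CPM.

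**Figure D5:**
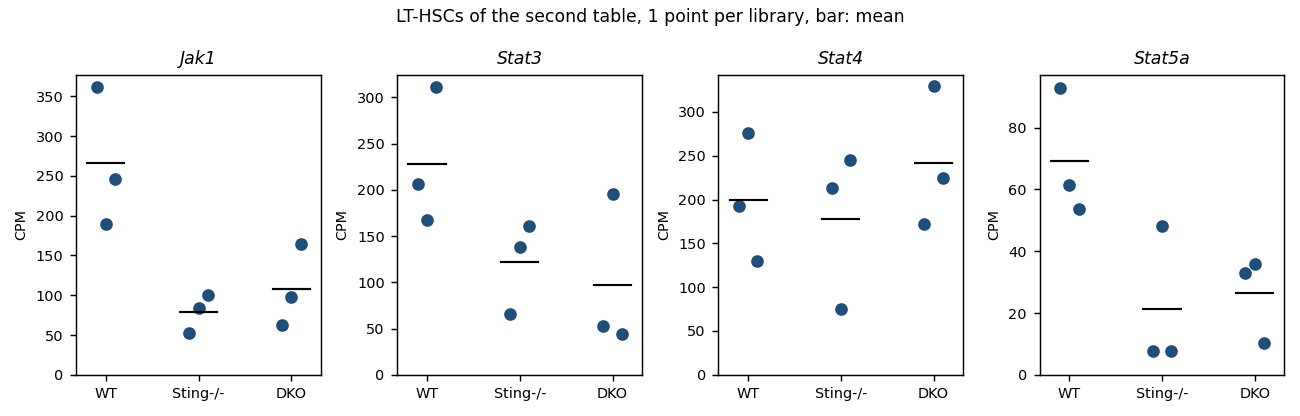
Level of Jak1, Stat3, Stat4 and Stat5a (TMM-scaled CPM, linear axes from 0) in the 9 LT-HSC libraries of the second set by genotype, with 1 point per library and a bar at the mean. The Jak1 points of WT, 189.4 to 362.1 CPM, lie above those of Sting-/-, 53.03 to 100.3 CPM, and of DKO, 62.95 to 164.3 CPM.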

How the data were processed

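RNA of sorted cells was amplified with a full-length mRNA kit and sequenced. The submitters' processing notes name Trim Galore 0.6.7, HISAT2 labelled 7.5.0, DESeq2 and the builds mm10 and mm9, and the counting program is not given in the sources used here. The authors deposited whole-number read counts per gene, with exon lengths in the second table, and both tables were analysed as deposited and separately. 2 broken lines of the second table were left out.

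Counts were tested with edgeR 4.0.16 (quasi-likelihood test, TMM scaling, filterByExpr, prior count 2; R 4.3.3, limma 3.58.1), within each population for genotype and within each genotype for populations, with Benjamini-Hochberg adjustment over all genes. A call needed an adjusted p of at most 0.05 and a 2-fold change, or the adjusted p alone for F tests over 5 coefficients. The edgeR test gives no SE. The SE printed with edgeR values is the absolute log2 fold change divided by the square root of F. The 95% intervals were built from this SE with the t distribution. The fold change is shrunken by the prior count and F is not, so SEs and intervals are approximate. Exact permutation tests used log2(CPM + 0.5). Scripts were tested on simulated data. Libraries held 50458473 to 102148079 counts in the first table and 26776517 to 78682096 in the second. These are amplified reads without molecular identifiers, so they are not independent molecules.

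Members and lists were chosen with earlier results of these data known. From each list, up to 4 called genes of largest change with a mean of at least 10 CPM were named, or the 2 of smallest p where none was called, and for F tests the genes of smallest p. 1 gene that this rule names is not reported here, and the counts of lists include it. Alternatives were RLE scaling, library size only, no filter, DESeq2 1.42.0, one fit of all libraries, a replicate block, other call rules, another transcript length, and leaving out each library or population. Python 3.11.15, numpy 2.4.6, pandas 2.3.3 and matplotlib 3.10.9 were used for the rest.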

Additional observations from a re-analysis of the deposited data

Results flagged for a closer look

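In 7 of 90 groups of 4 libraries, 1 library stood apart from the other 3 by Dixon's criterion, which chance alone does in about 1 in 20 groups. Jak1 had 105.5 CPM in the Tet2-/- GMP library of replicate 3 against 78.35 to 82.75 CPM in the others. Stat5a had 68.79 CPM in the Tet2-/- GMP library of replicate 4, above the other 3 at 60.5 to 61.3 CPM. Tyk2 had 7.573 CPM in the Tet2-/- MEP library of replicate 5 against 16.25 to 17.3 CPM. Stat2 was low in replicate 4 of Tet2-/- ST-HSCs (2.398 CPM against 11.9 to 13.55) and of Tet2-/- CMPs (1.906 CPM against 8.26 to 9.38). In CLPs, Stat4 had 478.5 CPM in the Tet2-/- library of replicate 2 (121.3 to 165.8 CPM in the others) and Stat6 160.9 CPM in the WT library of replicate 4 (31.25 to 36.0 CPM in the others).

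The Tet2 effect on Jak2 differed between populations (edgeR's quasi-likelihood F test of the interaction, adjusted p = 0.0455), with CPM below every WT library in 4 of 4 Tet2-/- CLP libraries. The call was lost in 27 of the 46 fits that left out 1 library (adjusted p from 0.0269 to 0.107), with library size only (0.341), with no low-count filter (0.106) and without the GMP, MEP or CLP libraries (0.06, 0.124 and 0.89). The difference within CLPs was not called (edgeR adjusted p = 1).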

How the results depend on the processing

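With no call in LT-HSCs, ST-HSCs, CMPs, GMPs or MEPs, the genotype counts of the 9 genes stayed at 0 under every setting tried. In CLPs they were 2 with all 46 libraries in one fit, 1 in DESeq2 and 2 with an unadjusted p and a 2-fold change. By the last rule 174 genes were higher and 215 lower of 13060 tested in CLPs. The Jak2 interaction gave 0 calls with library size only, with no filter, and without GMP, MEP or CLP libraries (the last 3 chosen after seeing the data), and 0 to 1 with 1 library left out. In the second set, an unadjusted p and a 2-fold change gave 1 call in DKO against WT and 1 in Sting-/- against WT. By that rule 343 genes were higher and 760 lower of 9745 in DKO, and 125 higher and 232 lower of 9969 in Sting-/-. DESeq2 gave 1 call in Sting-/- against WT. The Stat3 share in WT GMPs was 23.4% with the longest GENCODE transcript. Leaving out 1 library gave 32 to 43 called pairs in WT and 33 to 43 in Tet2-/- cells, and 4 to 7 genes over the Tet2-/- populations. Stat5b in LT-HSCs ranged from -0.13 to 0.72, turning negative from 0.43 without the Tet2-/- library of replicate 2. The cause was not tested. With library size only, Stat3 in LT-HSCs went from 0.016 to -0.044 and Stat4 in CMPs from 0.007 to -0.019.

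Counts over all genes depend on the tool: 4 against 233 (DESeq2) and 20 (one fit) in LT-HSCs, 3 against 331 and 21 in ST-HSCs, 734 against 1234 and 285 in CMPs, 723 against 219 (one fit) in GMPs, 651 against 1042 and 423 in MEPs, and 592 against 1393 (DESeq2) and 1199 (library size only) for the interaction. In the second set DKO against Sting-/- had 15 against 808 and DKO against WT 64 against 1308 (DESeq2).

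The same replicate numbers recur across populations, and whether they stand for the same mouse is not stated. A correlation over 0.1 in every same-numbered pair was not met, which does not show that the libraries were unpaired. The main fits left the replicate number out. Same-numbered libraries correlated at -0.048 to 0.101 between genotypes. Between populations they correlated at -0.045 to 0.143 in WT (7 of 51 over 0.1, against 0 of 150 with different numbers). In Tet2-/- cells they correlated at -0.063 to 0.274 (17 of 60 over 0.1, against 7 of 180). The medians were 0.05 in WT and 0.056 in Tet2-/- cells, against -0.018 and -0.02 with different numbers. These values are a hint of pairing between populations from the data and not from the design. With the replicate as a block the interaction adjusted p of Jak2 was 0.0428, the called pairs were 36 in WT and 39 in Tet2-/- cells, and 6 genes instead of 7 passed over the WT populations, Stat6 being lost (adjusted p = 0.0595, edgeR).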
